A study of Mus musculus with 3 samples.

Results

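The PYHIN genes encode proteins that pair an N-terminal pyrin domain with a DNA-binding HIN domain, and several of them sense DNA in the cytosol or nucleus. The genes were chosen by symbol: Ifi203, Ifi204, Ifi205, Ifi206, Ifi207, Ifi209, Ifi211, Ifi213, Mndal and Aim2, which are 10 of the 55536 annotated genes in the deposited tables. They were measured in 3 libraries of total RNA from the chromatin fraction, which holds RNA still attached to DNA and so is rich in unspliced and newly made transcripts. The cells were bone-marrow-derived macrophages (BMDM) of C57BL/6J mice, primary cells grown from marrow progenitors. All 3 libraries formed 1 group: cells received Lipid A at 100 ng/ml for 12 h, then a washout of 12 h, then Lipid A at 100 ng/ml again for 40 min. Lipid A is the part of lipopolysaccharide that Toll-like receptor 4 binds. With no untreated cells and no other fraction among the analysed samples, the values are levels, and nothing here tests induction. The labels number the libraries as biological replicates 1, 2 and 3 but give them 1 strain-level donor, so the spread covers these samples only. Sex and age were not collected, and any pooling of animals is not stated in the sources used here.

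Most PYHIN genes of the mouse sit in 1 cluster on chromosome 1, and many are interferon-stimulated genes. AIM2 binds double-stranded DNA in the cytosol and recruits the adaptor ASC, the product of Pycard, which activates caspase-1 and leads to IL-1β release and pyroptosis. IFI204 is a mouse relative of human IFI16 and can signal from DNA through STING to type I interferon. Macrophages carry both pathways.

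The members resemble one another in sequence, which bears on how reads can be assigned to them. Their longest annotated coding sequences were aligned. For Mndal and Aim2 these came from the transcripts Mndal-204 and Aim2-202, which carried little of the level of either gene. Identity was taken over the aligned bases only, without gaps and unmatched ends. By this measure the 45 pairs of members had 58.7% to 95.6% identical bases, with a median of 65.6%. Ifi204 and Ifi211 were the closest pair at 95.6% over 1272 aligned bases, of coding sequences of 1860 and 1278 bases. Ifi205 and Ifi211 followed at 94.7% over 1215 bases. Ifi206 and Ifi213 had 84.8%, and the pairs with Aim2 had 58.7% to 62.8%. The stretch below lies near the start of the coding sequence, at bases 10 to 69 of Ifi204, with the best ungapped match in 6 other members. The sequences are from GENCODE M21 transcripts, 5′ to 3′, and capitals mark bases that differ from Ifi204.
Ifi204: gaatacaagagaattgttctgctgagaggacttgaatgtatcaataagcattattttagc
Ifi211: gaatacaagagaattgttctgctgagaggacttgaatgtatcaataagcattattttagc
Ifi207: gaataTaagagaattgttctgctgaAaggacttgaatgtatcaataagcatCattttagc
Ifi205: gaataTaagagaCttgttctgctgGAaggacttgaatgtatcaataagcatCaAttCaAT
Mndal: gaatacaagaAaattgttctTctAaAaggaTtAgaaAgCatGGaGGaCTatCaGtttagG
Ifi213: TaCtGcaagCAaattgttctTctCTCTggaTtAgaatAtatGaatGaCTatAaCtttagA
Aim2: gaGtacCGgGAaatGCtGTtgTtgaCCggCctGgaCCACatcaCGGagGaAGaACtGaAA
In this stretch of 60 bases Ifi211 had 0 differences from Ifi204, Ifi207 had 3, Ifi205 had 9, Mndal had 17, Ifi213 had 20 and Aim2 had 29.

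All 10 genes were detected, meaning a mean of at least 10 expected counts, against 49.7% of protein-coding genes. Ranked by mean TPM (the share of transcripts after division by length, scaled to 1 total in every library), 9 of 10 lay in the top decile of the 22028 protein-coding genes, which holds 10% by construction, and Ifi206 ranked 2598. Together they summed to 3031, 2565 and 3552 TPM in replicates 1, 2 and 3, and they held 0.796% ± 0.124 of the counts in protein-coding genes (SD, n = 3). The median of their mean levels was 269 TPM, beside 7.32 TPM over the detected protein-coding genes. Over all protein-coding genes, many of them not detected, it was 0.44 TPM. The 5 highest members held 80.1% ± 1.60 of the summed TPM. In bulk RNA, fewer cells expressing a gene and less RNA per cell cannot be told apart.

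**Figure D1:**
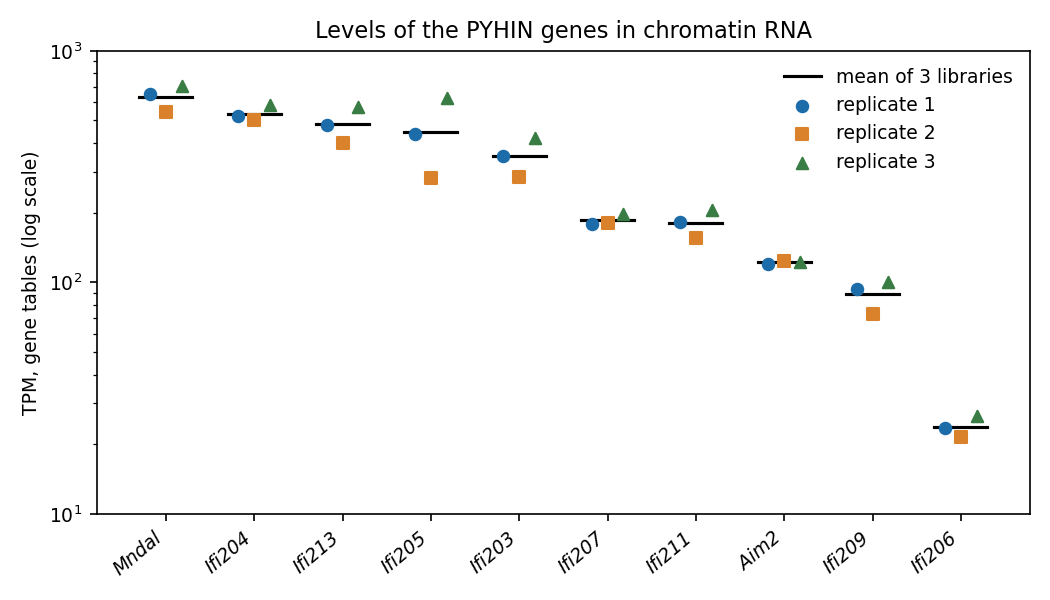
TPM of each PYHIN gene in the gene tables (log scale), with 1 point per library and a line at the mean of the 3 libraries. Mndal was highest in each library and Ifi206 lowest, and the 3 points of Ifi205 were the farthest apart.

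Positions are on mm10. Mndal (ENSMUSG00000090272.8, chr1:173849126-173942491, minus strand) is named for its likeness to the human myeloid cell nuclear differentiation antigen. It had the highest level, with 651, 543 and 706 TPM in replicates 1, 2 and 3 (634 ± 83.0, SD, n = 3). It ranked 32 among protein-coding genes. Ifi204 (ENSMUSG00000073489.6, chr1:173747293-173766943, minus strand) had 520, 500 and 581 TPM (534 ± 41.9). Ifi213 (ENSMUSG00000073491.11, chr1:173566283-173599274, minus strand) had 476, 399 and 570 TPM (482 ± 85.3). In TPM, replicate 3 held the highest and replicate 2 the lowest value of all these genes.

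The protein of Ifi205 (ENSMUSG00000054203.7, chr1:174011998-174031810, minus strand) was reported in mouse macrophages to affect expression of the inflammasome adaptor ASC. The gene had 435, 283 and 623 TPM (447 ± 171). Its highest library was 2.21 times its lowest, the widest range of the 10 genes. Ifi203 (ENSMUSG00000039997.16, chr1:173920407-173942672, minus strand) had 351, 286 and 419 TPM (352 ± 66.4). It also was highest in replicate 3 and lowest in replicate 2.

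Ifi207 (ENSMUSG00000073490.11, chr1:173723427-173741747, minus strand) had 179, 180 and 198 TPM (186 ± 10.8). Ifi211 (ENSMUSG00000026536.9, chr1:173896345-173913046, minus strand) had 182, 155 and 205 TPM (181 ± 25.3). They held ranks 259 and 278 among protein-coding genes. Their ranges overlapped.

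Aim2 (ENSMUSG00000037860.15, chr1:173350879-173466040, plus strand), the DNA sensor of the inflammasome, had 120, 124 and 122 TPM (122 ± 1.92). Its coefficient of variation of 1.57% was the lowest of the 10 in TPM, but CPM, counts scaled by library size with TMM factors and not divided by length, gave 93.2, 66.4 and 76.0. By CPM its highest library was 1.40 times its lowest, the second narrowest range of the 10 after Ifi207 at 1.33 times. Ifi209 (ENSMUSG00000043263.13, chr1:173630917-173647928, plus strand) had 93.5, 72.9 and 100.2 TPM (88.9 ± 14.2). Ifi206 (ENSMUSG00000037849.8, chr1:173468485-173491041, minus strand) had 23.6, 21.5 and 26.5 TPM (23.9 ± 2.53), below every other member in every library.

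In the gene tables, Mndal led and Aim2, Ifi209 and Ifi206 closed the order in all 3 libraries. From the reads, Mndal led and Ifi209 and Ifi206 came last in each library, but Aim2 stood above Ifi207 and Ifi211 in replicate 2 and above Ifi207 in replicate 3. Of the 9 pairs of neighbours by mean TPM, 5 had overlapping ranges, namely Mndal with Ifi204, Ifi204 with Ifi213, Ifi213 with Ifi205, Ifi205 with Ifi203, and Ifi207 with Ifi211. The 4 pairs without overlap were Ifi203 above Ifi207, Ifi211 above Aim2, Aim2 above Ifi209 and Ifi209 above Ifi206. Within libraries, 6 of the 9 pairs kept 1 order in all 3, the 4 without overlap and also Mndal above Ifi204 and Ifi204 above Ifi213. For the 4 pairs without overlap the exact permutation p was 0.1 (two-sided), the smallest that 3 against 3 allows, and the Benjamini-Hochberg adjusted value over the 9 pairs was 0.225. This permutation treats the values of a pair as separate samples, although both genes were measured in the same libraries. The pairs were formed by ordering the same values, so p does not test an order set beforehand. From the reads, 6 pairs overlapped. Without replicate 2, and likewise without replicate 3, 3 pairs overlapped.

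Promoters of the members were compared as well. Ifi206 and Ifi213, with near-identical ones, differed widely in level, while Mndal and Ifi203, and Ifi207 and Ifi211, differed far less. RefSeq promoters (GRCm38.p6, from 250 bases before to 50 after the start) were found for 9 of 10 members, in 11 entries, and not for Ifi204. The promoters of Ifi206 and Ifi213 had 98.9% identical bases over 266 aligned bases. One entry each of Mndal and Ifi203 had 97.6% over 289 bases, and Ifi207 and Ifi211 had 88.4% over 294 bases. The core of the interferon-stimulated response element, GAAA, any 2 bases and GAAA again, was searched on both strands and occurred in 8 of the 11 entries, from 7 of 9 members. It occurred in 3.44% of 32851 promoters of the same length. Several of the member promoters are near copies of one another, so the 8 entries are not separate occurrences to set against that share. The 150 bases before the start are shown for 6 members, 5′ to 3′ on the gene's strand, with capitals marking that core.
Ifi213, chr1:173599273-173599422, minus strand: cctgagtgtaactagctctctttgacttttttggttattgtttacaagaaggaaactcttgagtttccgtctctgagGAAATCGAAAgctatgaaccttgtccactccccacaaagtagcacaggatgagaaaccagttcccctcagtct
Ifi206, chr1:173491319-173491468, minus strand: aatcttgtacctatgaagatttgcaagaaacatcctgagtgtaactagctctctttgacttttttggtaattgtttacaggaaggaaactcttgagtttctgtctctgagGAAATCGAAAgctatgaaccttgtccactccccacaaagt
Mndal, chr1:173880188-173880337, minus strand: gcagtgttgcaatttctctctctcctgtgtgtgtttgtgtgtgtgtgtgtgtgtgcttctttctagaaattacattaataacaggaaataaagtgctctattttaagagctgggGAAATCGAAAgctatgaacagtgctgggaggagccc
Ifi205, chr1:174031756-174031905, minus strand: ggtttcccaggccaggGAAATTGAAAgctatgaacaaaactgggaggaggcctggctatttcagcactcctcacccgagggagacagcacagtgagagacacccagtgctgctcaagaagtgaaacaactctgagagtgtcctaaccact
Ifi209, chr1:173630709-173630858, plus strand: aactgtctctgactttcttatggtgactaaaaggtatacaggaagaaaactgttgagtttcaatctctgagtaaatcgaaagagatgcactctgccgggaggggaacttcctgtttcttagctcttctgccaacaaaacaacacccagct
Aim2, chr1:173420454-173420603, plus strand: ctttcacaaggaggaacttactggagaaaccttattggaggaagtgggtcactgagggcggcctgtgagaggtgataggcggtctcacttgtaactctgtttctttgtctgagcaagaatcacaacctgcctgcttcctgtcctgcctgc
Ifi213 and Ifi206 carry the same match, which begins at position -73 in Ifi213 and -40 in Ifi206, counted from the annotated start. In Ifi205 a match begins at position -134 and another, on the opposite strand, at position 24, outside the stretch shown. Aim2 and Ifi209 held no match in the window. The Aim2 entry lies upstream of position 173455354, where Aim2-204 starts, the coding transcript with the highest Aim2 level from the alignment, so another start of Aim2 is not covered. At the place where the promoter of the neighbouring paralog Ifi214 reads GAAATCGAAA, the Ifi209 promoter reads TAAATCGAAA, which is G1T counted from the first base of the motif in Ifi214. A match is a run of letters and does not show a bound factor, and no match says only that these letters are not in the window.

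Other motifs were fewer. The letters TATAAA occurred in the promoters of 4 of 9 members, Ifi205, Ifi206, Ifi209 and Ifi213, beside 13.6% of all promoters. GAGGAA (PU.1 core) occurred in 3, Aim2, Ifi206 and Ifi213, beside 28.3%, and in Ifi206 and Ifi213 it overlaps the start of the response element core. TGACTCA (AP-1) occurred in Ifi209 and in an entry of Mndal, beside 5.2%. TTCNNNGAA (STAT), present in 8.3% of all promoters, occurred in 0 members. The NF-kB site was searched in a pair of spellings, present in 0.155% and 0.0883% of all promoters, and occurred in 0 members.

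Ifi213 had 20.2, 18.6 and 21.5 times the TPM of Ifi206 in replicates 1, 2 and 3, despite the likeness of their promoter entries. The ratio averaged 14.9 ± 2.49 from the reads and 20.1 ± 1.45 by the alignment (SD, n = 3 each). These entries do not cover every start. Ifi206-201 starts at position 173491041 and Ifi213-202 at 173599074, each the highest transcript of its gene from the alignment, and both lie downstream of the entry. Mndal had 1.81 ± 0.112 times the TPM of Ifi203 in the gene tables, and more in each library. The Mndal entry shown does not cover every start of Mndal: Mndal-201, its highest transcript from the alignment at 197 TPM, starts at position 173942491, the same base as Ifi203-205 and within the Ifi203 promoter entry. Ifi207 over Ifi211 gave 0.982, 1.16 and 0.965, on both sides of 1. Ifi204 had 2.97 ± 0.226 times the TPM of Ifi211, its closest relative in coding sequence.

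Reads from such relatives can be hard to place, so the share of transcript sequence that also occurs elsewhere was measured in words of 31 bases. Ifi211 shared 78.9% of its words with another gene, 49.5% with Ifi205 and 38.6% with Ifi204. Ifi209 shared 47.2%, nearly all with Ifi214, which is not one of the 10. Ifi206 shared 36.4%, Ifi204 34.6%, Mndal 28.7%, Ifi213 26.6%, Ifi205 22.1% and Ifi203 21.9%. Ifi207 shared 14.8%, and Aim2 shared 5.26% and none with another PYHIN gene named here. All 10 lay above the median of 1.93% over 10942 detected protein-coding genes, and their own median was 27.7%. Sharing was uneven within a gene: the coding transcript Ifi205-201 shared 56.5% of its words and the retained-intron transcript Ifi205-202 shared 1.79%.

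**Figure D2:**
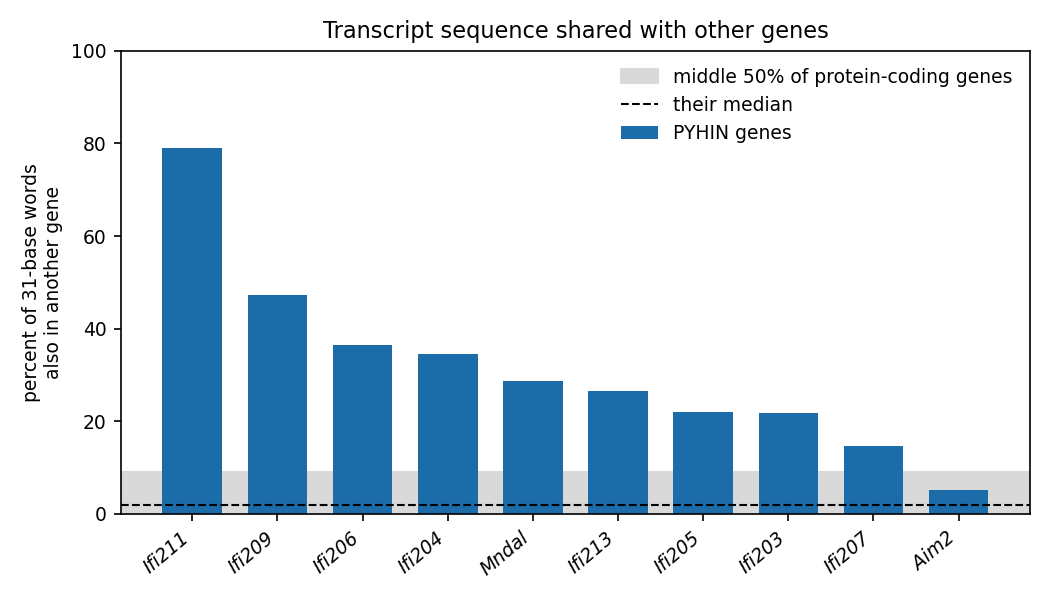
Percent of each gene's 31-base transcript words that also occur in another annotated gene (bars), with the middle 50% of detected protein-coding genes as a grey band and their median of 1.93% as a dashed line. Ifi211 stood highest at 78.9% and Aim2 lowest at 5.26%.

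Assignment to the paralogs was compared between the 2 deposited quantifications, one made from the reads directly and one from an alignment (the gene tables). No member was over 2-fold higher from the reads in all 3 libraries, where 10.6% of protein-coding genes were, and none over 2-fold lower, where 0.149% were. The mean log2 ratio of reads over gene tables, centred on the median gene, ran from -0.66 for Ifi213 to 0.16 for Aim2, with a median of -0.29. Before centring, the median protein-coding gene was 1.40, 1.31 and 1.32 times as high from the reads in replicates 1, 2 and 3. Ifi213 had 478, 306 and 455 TPM from the reads and 476, 399 and 570 TPM in the gene tables. Aim2 had 182, 178 and 190 TPM from the reads and 120, 124 and 122 TPM in the gene tables. Only Aim2 and Ifi209 had a mean ratio above that of the median gene.

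Ifi211, with most of its sequence shared, had 220, 156 and 213 TPM from the reads and 182, 155 and 205 TPM in the gene tables. Its mean log2 ratio of -0.31 lay near the median of the family. The deposited gene tables also give a posterior SD of each count, which reflects how freely reads could be moved between genes. This SD was at most 0.933% of the count, reached by Ifi211, and it was 0 for Aim2. It covers assignment under the tables' own model only.

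**Figure D3:**
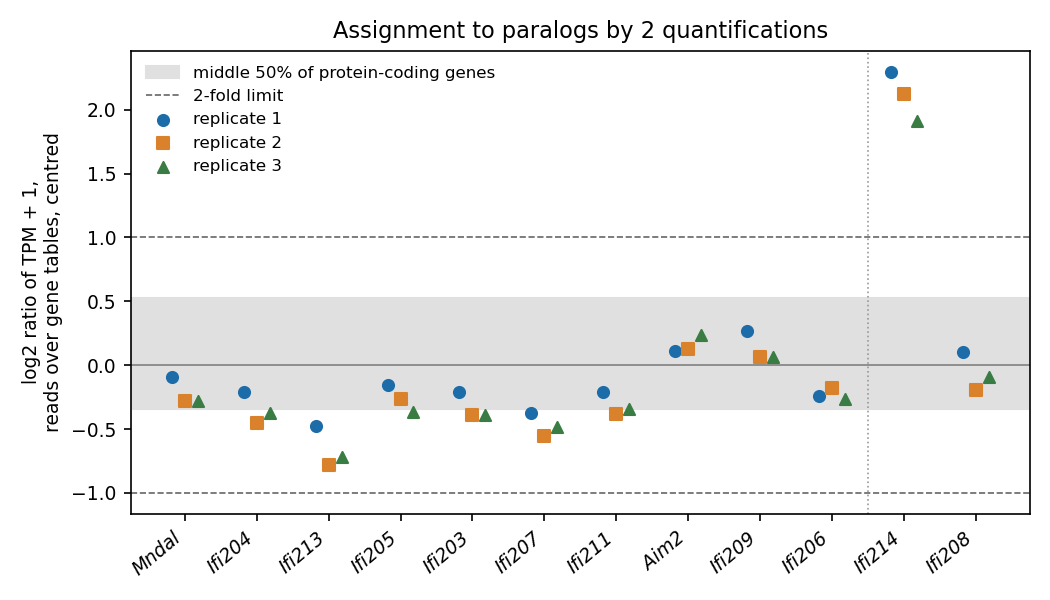
Log2 ratio of TPM + 1, reads over gene tables and centred on the median protein-coding gene of each library, with 1 point per library. All points of the 10 PYHIN genes lie between the 2-fold limits (dashed), while those of the neighbouring paralog Ifi214 lie above the upper one.

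Among the protein-coding genes of the cluster, the neighbouring Ifi214 had the largest ratio of reads over gene tables, and it shares sequence with Ifi209. It had 77.5, 61.8 and 83.6 TPM from the reads and 10.4, 9.94 and 16.1 TPM in the gene tables. Most of it from the reads was the retained-intron transcript Ifi214-204, with 71.7, 55.7 and 74.2 TPM from the reads and 6.88, 6.50 and 8.39 TPM from the alignment. Only 2.64% of the words of Ifi214-204 occur in another gene. Ifi209 had 158, 101 and 138 TPM from the reads and 93.5, 72.9 and 100.2 TPM in the gene tables.

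Single transcripts were compared between the quantifications in the same way. Of the 40 member transcripts with a mean of at least 1 TPM in either, 5 were over 2-fold higher from the reads in all 3 libraries and 0 were over 2-fold lower. Among all 41871 such transcripts of protein-coding genes, 15.4% were higher and 2.71% lower. The 5 were Aim2-202, Aim2-203, Aim2-205, Ifi207-202 and Ifi209-202. Ifi207-202 had 43.1, 37.6 and 42.0 TPM from the reads and 0, 0.55 and 0.29 TPM from the alignment. Ifi209-202, annotated as a target of nonsense-mediated decay, had 100.7, 55.5 and 77.3 TPM from the reads and 17.9, 6.69 and 9.02 TPM from the alignment. It made up 58.3% ± 4.77 of Ifi209 from the reads and 12.4% ± 5.78 from the alignment (SD, n = 3 each), so the transcript behind the level of Ifi209 depends on the quantification.

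Transcripts annotated as retained-intron carried much of the level of 4 high members in both quantifications. The chromatin fraction is rich in unspliced RNA, which these shares cannot tell from a retained intron. They held 58.4% ± 4.87 of Ifi205 from the reads and 62.9% ± 5.33 from the alignment. Ifi204 had 51.9% ± 2.56 from the reads and 47.2% ± 3.60 from the alignment, and Mndal had 49.1% ± 3.12 from the reads and 43.2% ± 5.11 from the alignment. For Ifi203 the share was 48.6% ± 2.15 from the reads and 40.2% ± 1.62 from the alignment. Ifi213 had 13.1% ± 1.66 from the reads and 11.5% ± 1.64 from the alignment. Over 6710 genes with both kinds of transcript the medians were 42.5% from the reads and 41.1% from the alignment, while over these 5 members they were 49.1% from the reads and 43.2% from the alignment. From the alignment, Ifi205 stood at percentile 81.3 of these genes, Ifi204 at 59.6, Mndal at 53.3, Ifi203 at 48.35 and Ifi213 at 9.64. Apart from Ifi205, the 4 high members thus lay near the middle of these genes.

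Within Ifi205, the retained-intron transcript Ifi205-202 had 250, 193 and 392 TPM from the alignment, and the coding transcript Ifi205-201 had 185, 89.9 and 231 TPM. The retained-intron transcript was the higher one in every library, and both were lowest in replicate 2 and highest in replicate 3. Ifi204-202, a retained-intron transcript, had 225, 251 and 280 TPM, and the coding Ifi204-201 had 295, 249 and 301 TPM. These levels crossed between libraries. For Mndal, the processed transcript Mndal-210 had 48.3 TPM in replicate 1 and 0.88 and 1.27 TPM in replicates 2 and 3, a spike of 1 library that was 9.78, 2.49 and 5.07 TPM from the reads.

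Ifi207, Ifi211 and Ifi206 have only protein-coding transcripts in the annotation, so they have no retained-intron share. For Aim2, transcripts not annotated as coding held 43.5% ± 0.449 from the reads and 60.2% ± 2.15 from the alignment. They were mainly Aim2-206 and Aim2-201, which are short, with 383 and 372 bases, and a short length raises TPM for a given count. Aim2 ranked 468 by TPM while its mean count of 1224 was the second lowest of the 10. Aim2-202 and Mndal-204, the sources of the coding sequences aligned above, held 2.13% and 0.610% of their gene's TPM from the alignment. From the reads they held 8.36% and 0.985%.

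**Figure D4:**
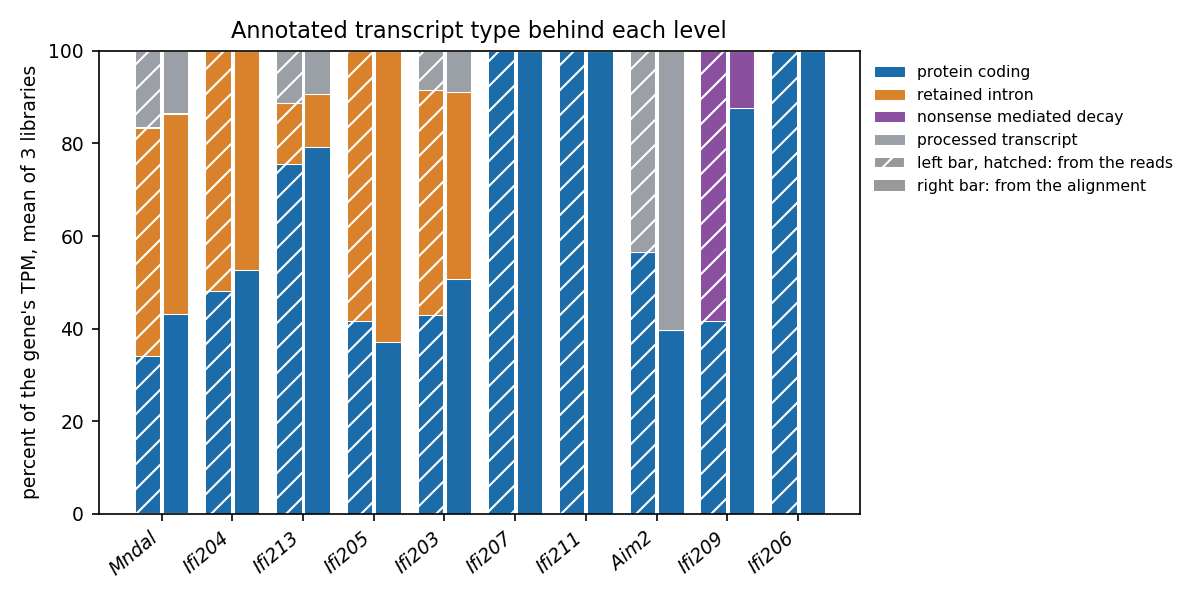
Percent of each gene's TPM by annotated transcript type, mean of 3 libraries, from the reads (left bar, hatched) and from the alignment (right bar). Retained-intron transcripts hold 40% or more of Mndal, Ifi204, Ifi205 and Ifi203. The median over 6710 genes with both kinds of transcript is 42.5% from the reads and 41.1% from the alignment. The decay-target share of Ifi209 is 58.3% from the reads and 12.4% from the alignment.

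The spread over the libraries exceeded counting error for every member. In a chi-square test against Poisson sampling with TMM library sizes from edgeR, 10 of 10 passed an adjusted p of 0.05 (Benjamini-Hochberg over 14330 genes). The same test called 54.9% of all genes tested and 89.7% of the 2298 protein-coding genes with at least the mean count of Ifi206, so passing it is common at these depths. The largest adjusted p among the members was 6.74e-14, for Ifi206. Without replicate 2 the test called 5 of 10, namely Ifi204, Ifi205, Ifi207, Ifi211 and Aim2.

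Replicate 2 was the lowest library for 10 of 10 members by CPM with TMM factors, beside 36.1% of detected protein-coding genes and 65.4% of those at least as abundant as Ifi206. This pattern was noticed in the data. By TPM it was lowest for 8 of 10, the exceptions being Ifi207 and Aim2. Which library was highest depended on the measure: replicate 3 was highest for 9 of 10 members by TPM and for 3 of 10 by CPM. The share of all genes highest in replicate 3 was not computed. Replicate 2 was made from 250 ng of RNA, replicate 3 from 500 ng and replicate 1 from 1 µg, and replicate 2 had the most counts. The part of RNA input in the pattern was not tested. The summed TPM of the members within protein-coding genes alone, rescaled to the same total, was 11044, 8346 and 11119 in replicates 1, 2 and 3.

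The SD of log2 CPM had a median of 0.36 over the members, beside 0.24 over detected protein-coding genes and 0.18 over those at least as abundant as Ifi206. Ifi205 had the widest, 0.65, with 1050, 544 and 1295 CPM. Ifi207 had the narrowest, 0.21, with 588, 441 and 542 CPM. Each was lowest in replicate 2, and they differed in which of the other libraries was higher. The biological coefficient of variation from edgeR was 0.272 for Ifi205 against a trend of 0.202 for genes of its abundance, and 6 of 10 members lay above their trend.

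**Figure D5:**
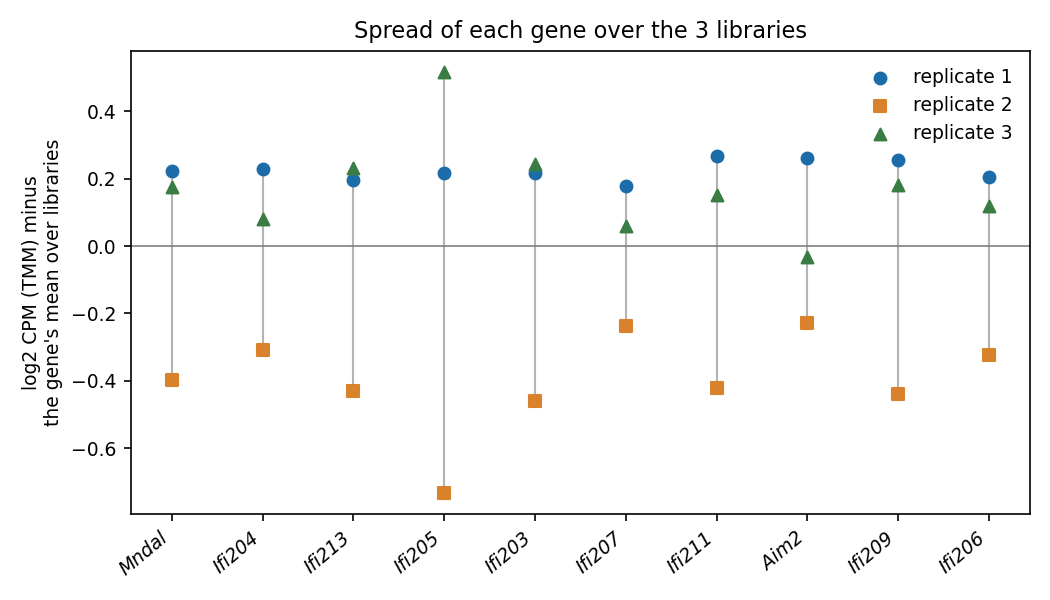
Log2 CPM with TMM factors in each library minus the gene's mean over the 3 libraries, for the 10 PYHIN genes ordered by TPM. The squares of replicate 2 are lowest in every column, and Ifi205 spans the widest range.

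The cluster spans 680932 bases of mm10 (chr1:173350879-174031810) and holds 21 annotated genes, the 10 members and 11 others. Of the members, 8 lie on the minus strand, and Aim2 and Ifi209 lie on the plus strand. Ifi211 lies wholly within the span of Mndal on the same strand, and Ifi203 overlaps it by 22085 bases. Annotated exons of Ifi203 and Mndal share only 37 bases, and unspliced RNA from the overlap cannot be told apart between them by position. The same holds for Ifi211, since Mndal-201 runs across all of it, so the level of Ifi211 may include unspliced RNA of Mndal. Aim2 overlaps Cadm3 on the opposite strand, and Cadm3 had a mean of 0.333 counts. Whether counting used strand is not stated in the sources used here.

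Of the other 11 genes of the cluster, 6 were detected. Ifi208 had 40.3, 33.4 and 42.1 TPM, and its promoter has 99.3% identical bases with that of Ifi206 over 281 aligned bases. The pseudogene Ifi203-ps had 51.5, 30.9 and 47.2 TPM and shares 42.9% of its words with Ifi203. Gm18752 had 4.03, 2.64 and 6.06 TPM and Gm18445 had 0.63, 1.37 and 3.31 TPM, both pseudogenes. Ifi202b, which encodes a HIN protein without a pyrin domain that restrains AIM2, had 0.48, 0.44 and 3.37 TPM. Its counts were 10, 9 and 65, so replicate 3 stood apart. C57BL/6 mice are known for low Ifi202b. Ifi212, Mnda, Pyhin1, Pydc3, Pydc4 and Pydc5 were looked for and not found under these symbols.

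Genes of pathways linked to the PYHIN proteins had very different levels of chromatin RNA, which do not give the levels of their proteins. Of 12 genes of the AIM2 inflammasome and related pathways, 12 were detected and 8 belonged to the top decile, their median being 51.0 TPM. Nlrp3, the sensor of another inflammasome, had 363 ± 121 TPM, Il1b had 330 ± 86.9 and Casp4, the sensor of cytosolic lipopolysaccharide, had 261 ± 80.9 (SD, n = 3). Aim2 itself stood at 122 TPM. Casp1 had 53.6 ± 2.88 TPM, and Pycard, the gene of the adaptor ASC, had 4.74 ± 1.62 TPM, the lowest of the 12. These last genes were picked after their values were seen. In 10 of these 12 genes replicate 2 was lowest by CPM, beside 36.1% of detected protein-coding genes and 65.4% of those at least as abundant as Ifi206.

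Of 19 genes annotated from the route from cytosolic DNA to interferon, 18 were detected and 9 belonged to the top decile, their median being 13.3 TPM. The kinase gene Ikbke led with 1193 ± 25.8 TPM, followed by Samhd1, a dNTP hydrolase, with 591 ± 38.8 and the transcription factor gene Irf7 with 400.0 ± 21.1. Xrcc5, a subunit of the DNA-end binder Ku, was not detected, with 1 count in the mean. Of 11 interferon signalling genes 11 were detected, among them Irf1 at 756 ± 128 and Stat2 at 512 ± 45.9 TPM. Stat2 is part of the factor that binds the interferon-stimulated response element. Replicate 2 was lowest by CPM in 11 of the 18 and 6 of the 11 genes, beside the same shares of 36.1% and 65.4%.

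Other interferon-stimulated families of paralogs were set beside the PYHIN genes. Of 10 guanylate-binding protein genes 10 were detected, led by Gbp5 with 550 ± 213, Gbp6 with 265 ± 93.0 and Gbp4 with 137 ± 19.3 TPM. Their median log2 ratio of reads over gene tables was -0.36, beside -0.29 for the PYHIN genes. Of 8 Schlafen genes 7 were detected, all but Slfn14, led by Slfn4 with 387 ± 128, Slfn8 with 274 ± 38.4 and Slfn2 with 236 ± 53.5 TPM, and their median ratio was -0.63. All 6 IFIT genes were detected, led by Ifit2 with 361 ± 65.9, Ifit3 with 307 ± 28.6 and Ifit1 with 80.0 ± 14.0 TPM, and their median ratio was -0.80. None of the 9 guanylate-binding protein, 7 Schlafen and 6 IFIT genes with a ratio passed the 2-fold limit in all 3 libraries, and differences between the families were not tested. Replicate 2 was lowest by CPM in 10 of 10 guanylate-binding protein genes, 6 of 7 detected Schlafen genes and 5 of 6 IFIT genes, beside 36.1% and 65.4%.

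The labelled cell type was checked by its markers. All 8 macrophage markers were detected, led by Adgre1 with 368, Lyz2 with 203 and Csf1r with 180 TPM, and they summed to 1080, 1195 and 1113 TPM in replicates 1, 2 and 3. In the gene tables, markers of neutrophils, T cells, B cells and natural killer cells gave 0 detected genes of 5, 4, 3 and 2. There, 1 of 5 dendritic cell markers and 2 of 3 fibroblast markers were detected at low levels. No such list summed to more than 1.09 TPM in a library of the gene tables, and Ly6g, Cd3e, Ncr1, Cd209a and Pdgfra were at 0 counts there in every library. These tallies were not made from the reads, where Pdgfra did have counts, with a mean log2 ratio of reads over gene tables of 0.64. Of the T cell markers, 1 was over 2-fold higher from the reads in all 3 libraries. By CPM, replicate 2 was lowest in 4 of the 8 macrophage markers, beside 36.1% of detected protein-coding genes and 65.4% of those at least as abundant as Ifi206.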

How the data were processed

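Total RNA of the chromatin fraction was sequenced after ribosomal RNA depletion, per the labels. The authors deposited gene and transcript tables laid out as by RSEM, with expected counts and TPM, for mm10 with GENCODE M21 per the file lists. They also deposited transcript tables laid out as by kallisto, with estimated counts and TPM, made directly from reads. The aligner and its version are not named in the sources used here. Deposited TPM values sum to the same total in each table. Per the file headers, a further column holds each transcript's percent within its gene, in TPM. Posterior SDs of the count and interval bounds of TPM, read here as signal values that are never negative, are the authors' own per the file headers. The libraries held 13802716, 17187524 and 16502809 expected counts in annotated genes, and 21006413, 30933271 and 28138803 estimated counts in the tables from the reads, summed to genes here. Entries that name no gene held 1.13%, 0.324% and 0.279% of the counts and were left out. With 0 counts seen, as many as 3 remain possible, which is 0.217, 0.175 and 0.182 CPM and covers counting error only.

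The PYHIN genes and the gene lists were chosen with earlier results of these data known. All 10 members are named, as are the 3 highest and up to 3 undetected genes of each list and the detected genes of the cluster. One gene that this rule names is not reported here. Counts were rounded to whole numbers and scaled with TMM factors (edgeR 4.0.16), CPM were computed from them, and variation was tested per gene by chi-square against Poisson sampling. The test was checked on Poisson counts simulated with known changes, which leaves out errors in assigning reads between paralogs. Ratios of TPM used a pseudocount of 1 TPM, which shrinks the ratio of low genes. Words of 31 bases, coding sequences and exons came from GENCODE M21, and promoters from RefSeq. There is 1 group, so no contrast was fitted. Alternatives were other minimum counts, limits, pseudocounts, scalings (DESeq2 1.42.0 size factors), the read-based tables and each replicate left out.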

Additional observations from a re-analysis of the deposited data

How the results depend on the processing

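Of 132 alternative values, 105 stayed within 1.5 times the reported count or within 1 SD over libraries of the reported level, and 27 did not, 20 of them higher. A mean of 3 libraries cannot move by 1 SD when 1 of them is left out. The 30 mean levels, the 21 non-coding shares and the summed TPM run this way therefore had to stay. The counts of members detected (10), in the top decile (9) and over 2-fold apart between the quantifications (0) did not change under any alternative run, including each replicate left out, limits of 1.5-fold and 3-fold, and a pseudocount of 0.1 TPM. Leaving out 1 replicate gave 5 to 10 members varying beyond counting noise, the 5 without replicate 2, and 3 to 5 overlapping pairs of neighbours, the 3 without replicate 2 or 3. The tables from the reads gave 6 such pairs. Without 1 replicate, the summed TPM was 2798 to 3292. Rescaling TPM over protein-coding genes, which removes the other genes from the total, gave a sum of 10169 in place of 3049, and raised all 10 members by construction. The sum from the reads was 3308 before this rescaling and 8079 after it, the latter below 10169. Levels from the reads moved by over 1 SD for Ifi206, Ifi209, Mndal and Aim2, all 4 upward, and non-coding shares moved for 6 of 7 members. The median protein-coding gene was also higher from the reads, at 1.40, 1.31 and 1.32 times in replicates 1, 2 and 3. Relative to it, only Aim2 and Ifi209 of the 10 members were higher on average. Alternatives for the next counts were chosen after the data were seen. Replicate 2 was lowest in 9 members with total count scaling, 10 with DESeq2 size factors, 8 by TPM and 10 from the reads, and 5 or 6 member transcripts were over 2-fold apart. All libraries belong to 1 group, so there are no groups to pair. Genes are paired by library, but no paired test between genes was run. Genes were set beside each other within libraries, where 6 of 9 neighbouring pairs kept 1 order. The number of libraries limits the precision, as 3 against 3 cannot reach an exact p below 0.1.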

Other observations

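Gm44339, an 84-base annotated miRNA gene inside Ifi209 on the opposite strand, was listed at 0 counts in the gene tables of all 3 libraries. In the tables made from the reads it had 88.3, 179 and 187 estimated counts and 318, 481 and 491 TPM, above the TPM of Ifi209 there. A short annotated length raises TPM for a given count. Gm44481, of 84 bases inside Ifi214, had 4.34, 13.0 and 12.9 estimated counts from the reads and 0 in the gene tables. The part of these entries in the levels of Ifi209 and Ifi214 was not tested.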
